A study of Mus musculus with 12 samples.

Results

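The 10 genes described here encode the BCL2 survival proteins and the pore-forming effectors of the same family. They are the rows of the deposited expression table named Bcl2, Mcl1, Bcl2l1, Bcl2l2, Bcl2a1a, Bcl2a1b and Bcl2a1d (7 survival genes) and Bax, Bak1 and Bok (3 effector genes), out of 36175 genes in all. RNA was sequenced in bulk from B cells purified out of the Peyer's patches (PP) of 12 male C57BL/6JHsd wild-type mice, aged 10 to 12 weeks, with 1 library for each mouse. The 6 stroke mice, labelled as brain injury, had their middle cerebral artery closed by a filament for 1 h (transient middle cerebral artery occlusion), and the 6 sham controls had an operation in which the filament only entered the common carotid artery and was withdrawn at once. Cells were taken 18 h after surgery. B cells were purified with magnetic beads in 2 steps, a negative selection that leaves small amounts of epithelial and endothelial cells and then a positive selection with CD45 beads, which take up leukocytes. The methods describe the B cells obtained in this way as nearly pure. The summed values of 8 intestinal epithelial markers ranged from 31.8 to 1582 between mice. The preparations hold the B cells that were left in the PP at that time, so a change in the mix of cells and a change of RNA per cell cannot be told apart in these bulk values.

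Mitochondrial apoptosis is decided by contacts between members of this family. BCL2, MCL1, BCL-XL (the product of Bcl2l1), BCL-W (Bcl2l2) and A1 (the Bcl2a1 genes) hold BAX and BAK in check at the outer mitochondrial membrane. The BH3-only proteins, such as BIM and PUMA, bind the survival proteins or activate BAX and BAK directly, after which BAX and BAK assemble into pores that release cytochrome c. In B cells, Bcl2 is known for the long life of resting cells, Mcl1 for the survival of germinal centre B cells and plasma cells, and A1 for survival after activation through the B cell receptor. MCL1 is a short-lived protein and BAX and BAK are switched on by a change of shape, so an mRNA level does not give the activity of any of these proteins.

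The Bcl2a1 genes are near-identical copies of each other. They lie on chromosome 9 of GRCm38, Bcl2a1d from 88723285 to 88731914 on the minus strand, Bcl2a1a from 88956900 to 88962419 and Bcl2a1b from 89199209 to 89207827, both on the plus strand. Over the 519 coding bases, Bcl2a1a and Bcl2a1b differed at 11 positions, Bcl2a1a and Bcl2a1d at 7, and Bcl2a1b and Bcl2a1d at 6. The first 90 coding bases are shown because 6 of the 12 coding positions at which any of the copies differ lie in them. Reads of the copies can also differ in the untranslated parts. They lie within 1 exon in each gene, at chr9:88957051-88957140 in Bcl2a1a, chr9:89199360-89199449 in Bcl2a1b and chr9:88731630-88731719 on the minus strand in Bcl2a1d, and capitals mark the 6 positions at which the copies are not all the same.
Bcl2a1a: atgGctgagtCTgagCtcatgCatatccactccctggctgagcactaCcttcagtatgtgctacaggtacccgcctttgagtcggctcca
Bcl2a1b: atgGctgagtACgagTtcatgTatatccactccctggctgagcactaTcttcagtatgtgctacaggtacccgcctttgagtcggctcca
Bcl2a1d: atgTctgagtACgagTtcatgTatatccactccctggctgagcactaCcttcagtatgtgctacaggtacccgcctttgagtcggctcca

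Because of this likeness, only 20.4% of the 31-base words of the Bcl2a1a transcript, 11.2% of those of Bcl2a1b and 10.9% of those of Bcl2a1d occurred in no transcript of another gene (GENCODE release M21). How kallisto divided reads between the copies is therefore uncertain, and their summed value is given beside the single values. Gm29094, a further gene model that shares sequence with all 3 copies, was between 1.64 and 12.7. Among the other members, the share was 100% for Bcl2l1, Bak1 and Bok, above 99% for Bcl2 (99.4%) and Mcl1 (99.5%), 88.9% for Bax and 87.2% for Bcl2l2. The gene models that shared most words with Bcl2l2 and Bax, Gm20521 and Gm45808, were at no more than 1.71 and at 0 in all mice.

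The upstream regions of the Bcl2a1 genes also share their sequence. The stretches below are from the RefSeq promoters on GRCm38.p6, which matched all 10 members by symbol, and are shown to compare the copies outside the transcript. The values of the copies moved together between mice, and since the copies share most of their transcript sequence, the part of shared reads in this was not tested. They lie at chr9:88956786-88956853 for Bcl2a1a, chr9:89199095-89199162 for Bcl2a1b and chr9:88731917-88731984 on the minus strand for Bcl2a1d, upstream of the annotated transcript, and capitals mark GAGGAAGT, a core of the recognition sequence of PU.1, a transcription factor of B cells and myeloid cells.
Bcl2a1a: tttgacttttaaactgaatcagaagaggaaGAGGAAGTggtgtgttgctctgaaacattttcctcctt
Bcl2a1b: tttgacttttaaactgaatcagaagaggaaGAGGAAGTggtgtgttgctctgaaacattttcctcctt
Bcl2a1d: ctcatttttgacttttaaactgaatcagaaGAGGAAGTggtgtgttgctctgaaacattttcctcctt

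GAGGAAGT, searched on both strands of the 250 bases before each start site, was found upstream of all 3 Bcl2a1 genes, once each on the sense strand, and on the antisense strand of Bak1, compared with 2.44% of the 32851 mouse promoters. GGGCGG, the core of a GC box, occurred 7 times in the Bcl2 window (4 sense, 3 antisense) and once or on both strands in Mcl1, Bcl2l2, the Bcl2a1 genes, Bax and Bok, while 32.7% of all promoters hold it. TATAAA was in none of these windows (12.4% of all promoters). The pattern GGGNNTTCC was in 1 of the 3 Bcl2l1 windows, on the antisense strand (4.98% of all promoters). These matches describe the letters of the windows and no binding was measured.

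Expression is given as the deposited value, a TPM that the authors normalized. It is a level per transcript length, so that genes can be compared with each other, but the column totals were not equal. They ranged from 559570 in sham control 6 to 1404340 in sham control 1, and from 804983 to 1020760 in stroke mice. The number of reads behind the values is unknown. All 7 B cell markers were present in every mouse, with a summed value between 2197 and 2736 in sham controls and between 1587 and 2591 in stroke mice. The summed neutrophil markers were between 4.71 and 9.62 in all mice, and none of the 8 was at 0 throughout. The groups were compared with limma on log2(value + 0.5) over the 12590 genes that reached 1 in each of the 12 mice, with Benjamini-Hochberg adjustment.

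All 10 genes had values above 0 in every mouse of both groups, with Mcl1 far above the others and Bok below 1 in 7 of 12 mice. Over the 12 mice the mean value was 289 for Mcl1, 46.3 for Bcl2a1b, 44.1 for Bax, 28.7 for Bcl2, 25.7 for Bcl2a1d, 25.2 for Bak1, 13.8 for Bcl2l1, 6.13 for Bcl2l2, 5.93 for Bcl2a1a and 1.2 for Bok. In every mouse Mcl1 was above Bcl2a1b, Bax above Bcl2, Bcl2l1 above Bcl2l2 and Bcl2a1a above Bok, and Bak1 was above Bcl2l1 in 11 of 12. Other neighbours in this order changed places between mice. Bcl2a1b was above Bax in 7 of 12 mice, Bcl2 above Bcl2a1d and Bcl2a1d above Bak1 in 8 each, and Bcl2l2 above Bcl2a1a in 9.

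**Figure D1:**
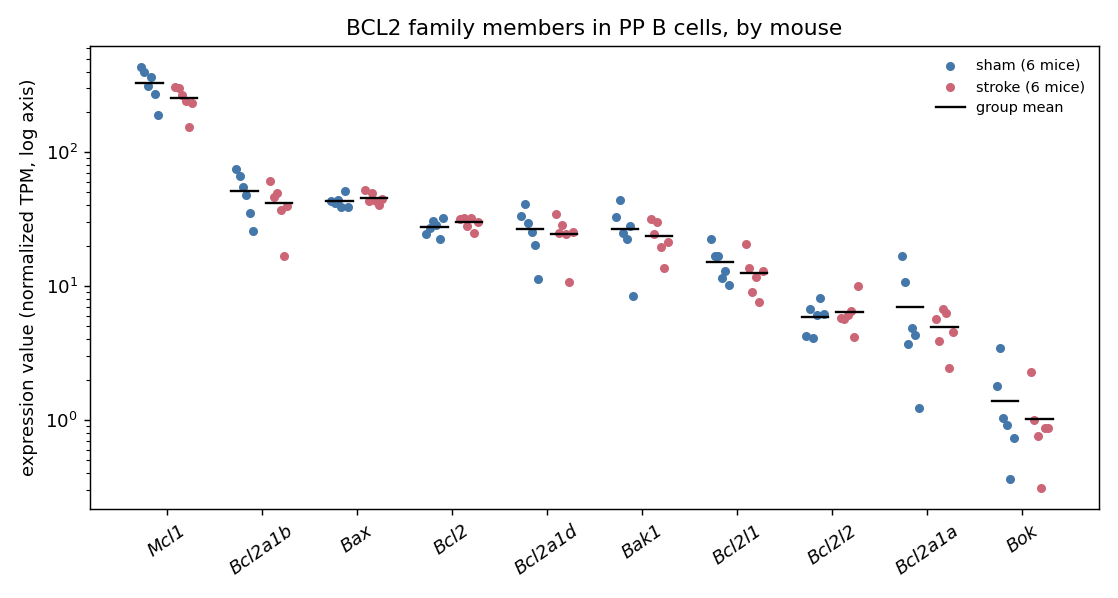
Expression value of each of the 10 genes in each mouse, on a log axis, for 6 sham controls (blue) and 6 stroke mice (red), with the group mean as a black line. Mcl1 had the highest value in every mouse, Bok the lowest mean, and the groups overlapped for all 10 genes.

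None of the members differed between stroke mice and sham controls by more than the variation between mice. Of the 9 members tested, 0 had an adjusted p under 0.05 and 0 an unadjusted p under 0.05 (limma). Among all 12590 genes, 0% had an adjusted p under 0.05, while 6.12% (770 genes) had an unadjusted p under 0.05. The groups overlapped for all 10 members. Among all genes tested they did not overlap for 0.437%, with 0.349% higher and 0.0874% lower in stroke mice. The log2 fold change was below 0 for 6 of the 9 members (Mcl1, Bcl2l1, the 3 Bcl2a1 genes and Bak1), compared with 48.6% of all genes. The adjusted p of the 9 members lay between 0.793 and 0.959. Bok was below 1 in 7 of 12 mice and did not enter this test.

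Of the survival genes, Mcl1, on chromosome 3 from 95658788 to 95663176, had the lowest p. Sham controls 1 to 6 were at 432, 394, 314, 363, 270 and 189, and stroke mice 1 to 6 at 308, 301, 269, 242, 155 and 234. All 6 stroke mice lay below the sham mean, which was also seen for 7.38% of all genes tested, but only stroke mouse 5 lay below the lowest sham control. The means were 327 ± 88.7 and 251 ± 56.1 (SD, n = 6 for each). With limma the log2 fold change was -0.36 with a standard error of 0.22 and a 95% interval from -0.83 to 0.10 (adjusted p = 0.793). The exact two-sided permutation p was 0.149. With single mice left out, the log2 fold change ranged from -0.51 without sham control 6, the sham control with the lowest Mcl1 value, to -0.23 without stroke mouse 5, the stroke mouse with the lowest. The unadjusted p was 0.0174 and 0.267 and the adjusted p 0.261 and 0.999 in these fits (limma), and without sham control 6 an unadjusted p under 0.05 was found for 16.6% of all genes. The log2 fold change of Mcl1 was -0.24 when the columns were scaled to the same total. Relative to the median of all genes, it was -0.37 in the main fit and -0.36 with that scaling.

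Bcl2, on chromosome 1 from 106538178 to 106714274, was one of the steadiest members. Sham controls 1 to 6 were at 24.3, 27.1, 30.6, 28.4, 22.4 and 32.2, and stroke mice 1 to 6 at 31.7, 32.1, 27.9, 32.4, 24.8 and 30.1. The highest and the lowest of the 12 mice differed by a factor of 1.44, and 5 stroke mice lay above the sham mean. The 95% interval of the log2 fold change ran from -0.14 to 0.38 (limma), with an adjusted p of 0.859 and an exact two-sided permutation p of 0.245. The log2 fold change was 0.12, and it was 0.24 when the columns were scaled to the same total and 0.06 without sham control 5. That scaling moved the median of all genes to 0.13. Relative to the median of all genes, Bcl2 was at 0.113 in the main fit and at 0.115 with the same total.

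Bcl2l1, on chromosome 2 from 152780668 to 152831728, encodes BCL-XL, which protects activated B cells. Sham controls 1 to 6 were at 22.5, 16.7, 16.8, 11.5, 13.0 and 10.2, and stroke mice 1 to 6 at 20.4, 13.6, 9.07, 11.8, 7.58 and 12.9. Stroke mice 3 and 5 lay below all sham controls, and stroke mouse 1 lay above 5 of them. With limma the log2 fold change was -0.28 with a standard error of 0.24 (adjusted p = 0.839). It was -0.15 without sham control 1, -0.15 without stroke mouse 5 and -0.43 without stroke mouse 1, and the exact two-sided permutation p was 0.301.

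Bcl2l2, on chromosome 14 from 54883377 to 54888234, encodes BCL-W, which is best known from the testis and nervous system. Its values were low, between 4.13 and 8.17 in sham controls and between 4.13 and 10.004 in stroke mice, with medians of 6.10 and 5.94. Stroke mouse 6 had the highest value, and the medians lay closer together than the lowest and highest mice of either group. With limma the log2 fold change was 0.09 with a standard error of 0.20 (adjusted p = 0.936). It was -0.05 without stroke mouse 6 and -0.00042 without sham control 3.

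The sum of Bcl2a1a, Bcl2a1b and Bcl2a1d, which does not depend on how reads were divided among them, was 125, 118, 88.7, 78.2, 59.4 and 38.2 for sham controls 1 to 6. For stroke mice 1 to 6 it was 101, 74.7, 85.2, 67.9, 29.8 and 69.4. Sham controls 1 and 2 were the highest and stroke mouse 5 and sham control 6 the lowest, so that the sham controls spanned nearly the whole range. The group means were 84.6 ± 33.5 for sham controls and 71.3 ± 23.8 for stroke mice (SD, n = 6 each). The difference of -13.3 was -5.18 without sham control 1, -6.59 without sham control 2, -4.99 without stroke mouse 5 and -22.6 without sham control 6, and it was -2.76 when the columns were scaled to the same total. Bcl2a1b made up most of the sum, with 61.0% ± 3.81 for sham controls and 58.0% ± 2.68 for stroke mice (SD, n = 6 each), followed by Bcl2a1d with 31.8% and 34.8% and Bcl2a1a with 7.22% and 7.12%.

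Taken singly, the log2 fold changes were -0.29 ± 0.31 for Bcl2a1b, -0.09 ± 0.31 for Bcl2a1d and -0.15 ± 0.45 for Bcl2a1a, each with its standard error. The adjusted p were 0.862, 0.959 and 0.952 (limma). Bcl2a1b was between 25.7 and 75.1 in sham controls and between 16.7 and 60.9 in stroke mice, with medians of 51.7 and 42.9. Bcl2a1d was between 11.3 and 41.1 in sham controls and between 10.7 and 34.3 in stroke mice, with medians of 27.5 and 25.0. For both copies, stroke mouse 5 was below all sham controls and the other stroke mice lay within their range. Bcl2a1a varied most of the 9 genes tested. It was at 16.7 and 10.8 in sham controls 1 and 2, at 1.22 in sham control 6, and between 2.43 and 6.74 in stroke mice. No stroke mouse was above the sham mean of 6.93, while sham controls 3 to 6 were below it as well. Its log2 fold change was 0.17 without sham control 1, 0.05 without sham control 2, 0.02 without stroke mouse 5 and -0.49 without sham control 6. That of Bcl2a1d was 0.05 without sham control 2, 0.13 without stroke mouse 5, -0.31 without sham control 6 and 0.04 when each column was scaled to the same total. That of Bcl2a1b was -0.05 without stroke mouse 5, -0.16 without sham control 1 and -0.47 without sham control 6.

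Of the effector genes, Bax, on chromosome 7 from 45461697 to 45466898, varied least of all members. Sham controls 1 to 6 were at 43.1, 41.8, 43.6, 38.6, 51.4 and 39.0, and stroke mice 1 to 6 at 51.8, 43.2, 49.1, 43.0, 40.2 and 44.7. Stroke mouse 1 and sham control 5 were the highest, and the groups lay over each other. The coefficient of variation over the 12 mice was 10.1%, higher than that of only 4.16% of all genes tested. The means were 42.9 ± 4.63 and 45.3 ± 4.31 (SD, n = 6 for each). With limma the log2 fold change was 0.08 with a standard error of 0.11 and a 95% interval from -0.15 to 0.31 (adjusted p = 0.887). It was 0.20 when the columns were scaled to the same total, 0.04 without stroke mouse 1 and 0.13 without sham control 5. Relative to the median of all genes, it was 0.072 in the main fit and 0.077 with the same total. The exact two-sided permutation p was 0.340.

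Bak1, on chromosome 17 from 27019810 to 27029009, encodes BAK, which unlike BAX sits in the mitochondrial membrane before it is activated. Sham controls 1 to 6 were at 33.0, 43.8, 25.0, 22.4, 28.3 and 8.47, and stroke mice 1 to 6 at 31.7, 24.3, 30.2, 19.7, 13.7 and 21.3. The highest and the lowest value were both in sham controls, and they differed by a factor of 5.17, compared with 1.34 for Bax. With limma the log2 fold change was -0.09 with a standard error of 0.33 (adjusted p = 0.959). It was 0.03 when the columns were scaled to the same total, 0.08 without sham control 2, 0.05 without stroke mouse 5 and -0.39 without sham control 6.

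Bok, on chromosome 1 from 93685660 to 93695764, encodes a relative of BAX and BAK that is kept low by degradation of the protein. Sham controls 1 to 6 were at 1.80, 3.42, 1.04, 0.922, 0.359 and 0.735, and stroke mice 1 to 6 at 2.29, 1.01, 0.756, 0.310, 0.863 and 0.872. Apart from 3 mice, all values were near 1 or lower in both groups. An exact permutation test, two-sided, gave p = 0.591, and in the fit without a filter its log2 fold change was -0.23 with a standard error of 0.37 (adjusted p = 0.822, limma). The 3 mice with the highest Bok values, sham controls 1 and 2 and stroke mouse 1, also had the highest summed values of the 8 intestinal epithelial markers, which were 1582, 1434 and 719 in these mice and between 31.8 and 452 in the others. The summed epithelial markers ranged from 35.1 to 1582 in sham controls and from 31.8 to 719 in stroke mice. Of the 5 epithelial markers tested, all had a log2 fold change below 0 and 0 had an adjusted or unadjusted p under 0.05 (limma), and none of the 8 was at 0 throughout. The selection with CD45 beads is meant to leave out epithelial cells, which lack CD45. For comparison, the summed B cell markers were 2197 and 2643 in sham controls 1 and 2. The part of epithelial RNA in the Bok values was not tested.

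**Figure D2:**
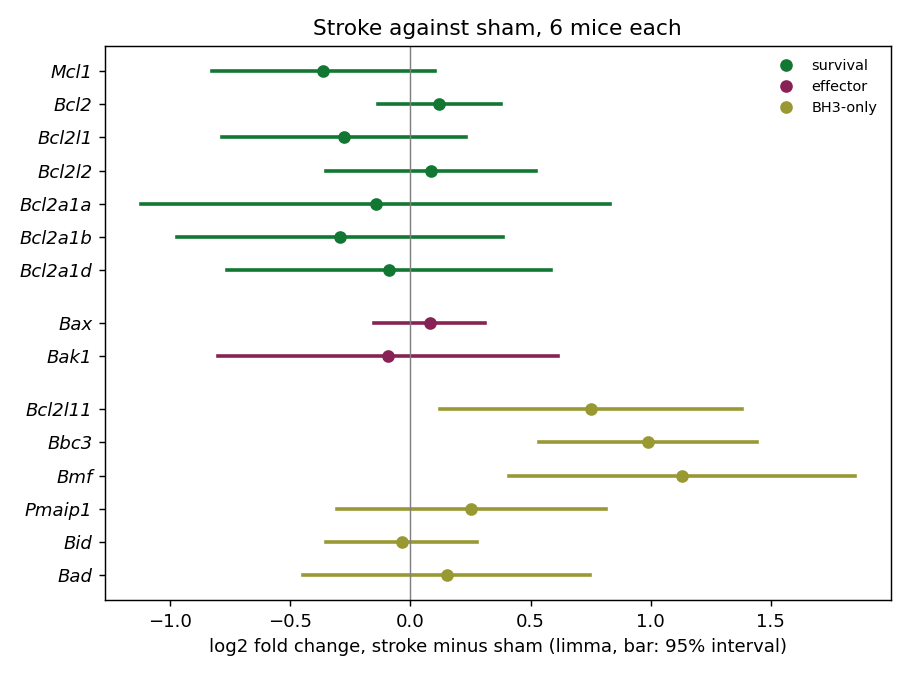
Log2 fold change of stroke mice against sham controls with its 95% interval from limma, for the 7 survival genes, Bax and Bak1, and the 6 BH3-only genes that were tested. The intervals of all 9 members include 0, and those of Bcl2l11, Bbc3 and Bmf lie above 0.

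Mcl1 made up most of the summed survival genes in all mice, while the shares of Bcl2 and the Bcl2a1 genes varied more relative to their means. Mcl1 took between 65.7% and 74.5% of the summed survival genes. Its mean share was 70.9% ± 2.22 for sham controls and 67.8% ± 2.01 for stroke mice (SD, n = 6 each). The share of Bcl2 was 6.51% ± 2.71 and 8.33% ± 1.65 (SD, n = 6 each), and it was highest in sham control 6, at 11.7%, and stroke mouse 5, at 11.2%. The lowest share of Bcl2 was 3.99%, in sham control 1. The Bcl2a1 genes took 17.8% and 18.7% on average, with single mice between 13.5% and 21.6%. No test was run on these shares, since the members were chosen with results of these data known.

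**Figure D3:**
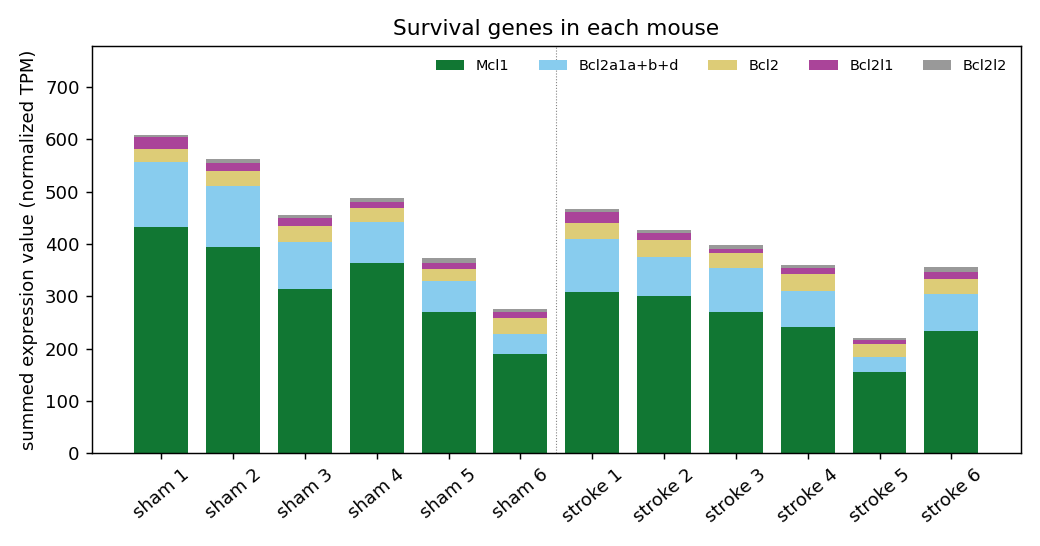
Summed expression value of the survival genes in each mouse, stacked by gene, with the 3 Bcl2a1 copies as 1 block. The sum ran from 609 in sham control 1 to 221 in stroke mouse 5, and Mcl1 was the largest block in every mouse.

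Ratios within a mouse do not depend on the scale of its column. Mcl1 was 17.8, 14.5, 10.3, 12.8, 12.0 and 5.87 times Bcl2 for sham controls 1 to 6, and 9.73, 9.38, 9.65, 7.47, 6.24 and 7.78 times Bcl2 for stroke mice 1 to 6. All stroke mice thus lay below 5 of the 6 sham controls, and sham control 6 lay below all stroke mice. On the log2 scale, the ratio of Bcl2 to Mcl1 averaged -3.53 ± 0.55 for sham controls and -3.05 ± 0.26 for stroke mice (SD, n = 6 each).

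Bax was 1.60 ± 0.388 times Bcl2 for sham controls and 1.53 ± 0.173 times for stroke mice (SD, n = 6 each), with overlapping mice. The difference in the log2 ratio of Bcl2 to Bax was 0.04 and ranged from -0.07 without sham control 5 to 0.12 without sham control 6. The summed survival genes were 7.81, 6.32, 6.52, 7.87, 4.66 and 5.71 times the summed effector genes for sham controls 1 to 6, and 5.45, 6.23, 4.96, 5.73, 4.04 and 5.33 times for stroke mice 1 to 6. Sham controls 1 and 4 were the highest and stroke mouse 5 the lowest, and the other mice overlapped. On the log2 scale this ratio averaged 2.67 ± 0.29 for sham controls and 2.39 ± 0.21 for stroke mice (SD, n = 6 each). The difference of -0.28 ranged from -0.37 to -0.21 when single mice were left out.

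The members differed in how far they moved together between mice. Within the groups, that is after each group mean was subtracted, Mcl1 correlated over the 12 mice with Bcl2a1b (r = 0.95), Bcl2a1d (r = 0.93), Bak1 (r = 0.86), Bcl2a1a (r = 0.83) and Bcl2l1 (r = 0.75). These 5 survival genes and the effector Bak1 were therefore high in the same mice. The correlation of Mcl1 with Bcl2 was 0.06, with Bcl2l2 -0.02 and with Bax 0.31, and that of Bcl2 with Bax was -0.31. Bax correlated with Bak1 at 0.57, with Bcl2l1 and Bcl2a1d at 0.43 each, with Bcl2a1b at 0.41 and with Bcl2a1a at 0.30. These correlations are given as a description and without a p, since the points share libraries and the column scale.

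The column totals varied between mice as well, and a value shares the scale of its column, so its relation to the total is given as a description and without a p. Over the 12 mice, the correlation of log2 values with the log2 column total was 0.91 for Bak1 (Spearman's rho 0.92), 0.79 for Mcl1 (rho 0.78), 0.80 for Bcl2a1d (rho 0.80), 0.76 for Bcl2a1b (rho 0.85) and 0.93 for Bcl2a1a (rho 0.77). It was lower for Bcl2l1, at 0.62 (rho 0.52), and for Bax, at 0.27 (rho 0.31), and below 0 for Bcl2, at -0.46 (rho -0.60). Without sham controls 1 and 6, the mice farthest from the median total, r was 0.88 for Bak1, 0.66 for Mcl1, 0.45 for Bcl2l1, 0.13 for Bax and -0.15 for Bcl2. Within the sham controls and the stroke mice, r was 0.94 and 0.87 for Bak1, 0.94 and 0.60 for Mcl1, 0.22 and 0.95 for Bax and -0.58 and 0.09 for Bcl2.

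**Figure D4:**
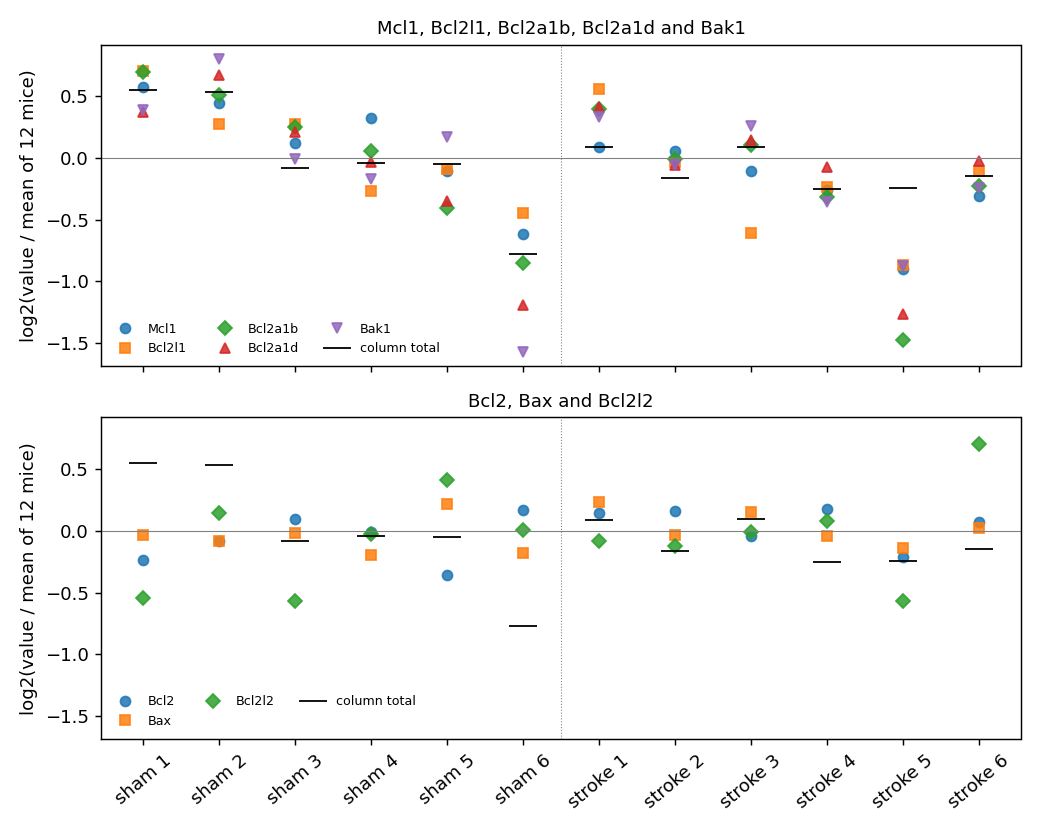
Log2 ratio of each gene's value to its mean over the 12 mice, by mouse, with the column total on the same scale as short black lines. Mcl1, Bcl2l1, Bcl2a1b, Bcl2a1d and Bak1 (top) were below their means in sham control 6 and stroke mouse 5 and above them in sham controls 1 and 2, while Bcl2 and Bax (bottom, with Bcl2l2) stayed closer to 0 than these genes in sham control 6 and stroke mouse 5.

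The summed values of several marker lists of other cells had their extremes in the same mice. Those of the 7 plasma cell markers were highest in sham controls 1 and 2, at 1487 and 1333, and lowest in sham control 6 and stroke mouse 5, at 295 and 372, which were also the mice with the highest and the lowest Mcl1 values. They ranged from 295 to 1487 in sham controls and from 372 to 1086 in stroke mice. Of the 6 plasma cell markers tested, 5 had a log2 fold change below 0 and 0 an adjusted or unadjusted p under 0.05 (limma), and none of the 7 was at 0 in all mice. The summed macrophage and dendritic cell markers were also highest in sham controls 1 and 2, at 345 and 237, and lowest in sham control 6 and stroke mouse 5, at 57.7 and 64.1. Of the 7 of these 8 markers tested, 3 had a log2 fold change above 0 and 4 below, 1 was higher and 0 lower at an unadjusted p under 0.05, 0 passed the adjusted threshold (limma), and none was at 0 in all mice. The epithelial markers were highest in sham controls 1 and 2 as well. The summed B cell markers were lowest in stroke mouse 5 as well, at 1587. Other lists had their extremes in other mice. The summed germinal centre B cell markers were highest in sham control 5, at 516, and lowest in sham control 4, at 234. Those of the T cell markers were highest in stroke mouse 1, at 185, and lowest in stroke mouse 4, at 71.9. The first selection step is meant to remove cells other than B cells. The part of plasma cells, macrophages, dendritic cells and epithelium in the Mcl1 values was not tested.

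The genes most like each member over the 12 mice differed in how close they came. Mcl1 was most like Klhl9 (r = 0.98, rho = 0.99) and Igkv2-137 (r = 0.98, rho = 0.98), and 233 genes had an r over 0.9 with it. Bak1 was most like Ran and Khsrp (r = 0.99 for each, rho = 0.95 and 0.96), and 700 genes had an r over 0.9. Bcl2l1 was most like Chst12 and Mpp1 (r = 0.93 for each), with 16 such genes. Bcl2 was most like Nsd3 (r = 0.90) and Gnl2 (r = 0.89), with 1 such gene, and Bax was most like Klrb1 (r = 0.87) and Ccdc181 (r = 0.83), with 0. They are the highest of all genes tested, so no p is given.

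The BH3-only genes, the partners that engage the survival and effector proteins, had higher values in stroke mice for 3 of the 6 genes tested at an unadjusted p under 0.05, and for 0 at an adjusted p (limma). The count was 2 without sham control 5. Among all genes, 4.42% were higher at an unadjusted p under 0.05. Bcl2l11, which encodes BIM, was between 16.4 and 33.9 in sham controls (median 22.8) and between 27.4 and 104 in stroke mice (median 31.6). Bbc3, which encodes PUMA, was between 1.93 and 5.48 in sham controls (median 3.01) and between 5.01 and 9.19 in stroke mice (median 6.26). Bmf was between 7.63 and 17.5 in sham controls (median 12.0) and between 17.3 and 77.5 in stroke mice (median 20.4). All 6 stroke mice lay above the sham mean for each of these 3 genes, as for 7.01% of all genes, but the groups overlapped. The log2 fold changes were 0.75 ± 0.29 for Bcl2l11, 0.99 ± 0.21 for Bbc3 and 1.13 ± 0.33 for Bmf, each with its standard error (adjusted p = 0.772, 0.50 and 0.716 with limma). Pmaip1 (NOXA, a partner of MCL1 and A1), Bad and Bid had log2 fold changes of 0.25, 0.15 and -0.04. Bik and Hrk were not tested. Bik was between 0.177 and 1.64, and Hrk was no more than 0.170 in any mouse. The median log2 fold change was 0.50 for the 6 BH3-only genes, -0.15 for the 7 survival genes and 0.01 for all genes tested.

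The other lists of the pathway are described by counts at an unadjusted p under 0.05, which 6.12% of all genes passed in either direction (limma). Of 13 genes of the pore partners of BAX and BAK and the apoptosome, 0 passed in either direction. The most abundant of them were Vdac2, a channel that holds BAK at the membrane, with a log2 fold change of -0.24, Vdac3 with -0.19, and the caspase inhibitor Xiap with -0.27. The count of lower genes at an unadjusted p under 0.05 was 2 with sample quality weights, 1 without stroke mouse 3 and 4 without sham control 6, where 1162 of all 12661 genes tested were lower. Of the 5 other BCL2 relatives tested, 0 passed, and Bnip3l, Bcl2l12 and Bcl2l13, the most abundant, had 0.07, -0.23 and -0.10. The fourth Bcl2a1 copy in the table, Bcl2a1c, also named after its values were seen, was at 0 in 11 of 12 mice.

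Of the 9 regulators of MCL1 and BCL2 stability tested, 0 passed at an unadjusted p under 0.05, compared with 6.12% of all genes. Without sham control 6 there was 1 that was lower. They include Huwe1, a ubiquitin ligase of MCL1, and Usp9x, which removes ubiquitin from MCL1, with log2 fold changes of 0.03 and -0.03, and Tpt1 with -0.23. Of 16 upstream regulators of survival genes, 0 were higher and 1 was lower at an unadjusted p, compared with 1.69% of all genes that were lower, and 0 passed the adjusted threshold (limma). The lower gene was Stat6, the transcription factor of IL-4 signaling, named after its values were seen, with means of 95.3 ± 13.3 for sham controls and 76.7 ± 13.8 for stroke mice (SD, n = 6 each, log2 fold change -0.32, adjusted p = 0.791 with limma). The count of lower genes in this list was 0 with same-total scaling, with quantile normalization, and without sham control 3, 4 or 5 or stroke mouse 1, 3 or 5, and it was 3 with sample quality weights and without sham control 6. The most abundant of this list were Mef2c with -0.03, Stat3 with -0.02 and Nfkb1 with -0.06.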

How the data were processed

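Per the labels and the study's methods, reads were checked with FastQC, trimmed (Trimmomatic 0.39) and quantified by kallisto 0.48.0 on GRCm38, then normalized in sleuth 0.30.0 (R 4.1.2). The authors deposited 1 value per gene and mouse, labelled normalized TPM. Plain TPM was assumed in the test design, but column totals differ, so the deposited numbers were taken as an expression signal per transcript length. No counts were used here, so the depth is unknown.

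limma 3.58.1 (R 4.3.3) was run on log2(value + 0.5) over the 12590 genes that reached 1 in each mouse, with Benjamini-Hochberg adjustment over all of them. The pseudocount makes ratios between low values look smaller, but it can move a log2 fold change of group means either way. With 0.1 and 1 in its place, the log2 fold change was -0.13 and -0.16 for Bcl2a1a and 0.092 and 0.081 for Bcl2l2. Single genes were compared by exact permutation (924 assignments, smallest p 0.00216). The limma fit was tested on simulated data. Members and lists were chosen with earlier results of these data known. Named genes are the members, the BH3-only list, the 3 most abundant genes of every other pathway list and the 2 genes most correlated with Bcl2, Mcl1, Bcl2l1, Bax and Bak1. Stat6, Nfkb2, Bcl2a1c, Krt19 and Lgals4 were named outside this rule, as were gene models that share sequence with members. Alternatives were other pseudocounts, filters, scalings, a replicate block, sample weights and left-out mice. Gene coordinates are from GENCODE M21 (GRCm38).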

Additional observations from a re-analysis of the deposited data

Results flagged for a closer look

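The Bok value of stroke mouse 1, 2.29, stood apart from the other stroke mice, which were between 0.310 and 1.01 (Dixon's criterion for the highest of 6). It was the only such value among the 20 sets of 6 mice tested for the 10 genes, and chance flags about 1 in 20. Stroke mouse 1 also had the highest summed epithelial markers of the stroke mice, at 719.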

How the results depend on the processing

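Across the 23 settings, 0 of the 9 members tested had an adjusted p under 0.05 (limma, lowest 0.261), and Mcl1, Bcl2l1, Bcl2a1b, Bcl2 and Bax kept the sign of their log2 fold change. An unadjusted p under 0.05 was found for Mcl1 in 3 settings (limma). They were the replicate block (0.0443), sample quality weights (0.0302) and the fit without sham control 6 (0.0174). In these fits 9.32%, 12.5% and 16.6% of all genes passed, compared with 6.12% in the main fit. Scaling to the same total gave a log2 fold change of 0.036 for Bcl2a1d and 0.034 for Bak1. For Bcl2a1a it was 0.024 with sample quality weights. Leaving out sham controls 1, 2 and 6, chosen after seeing the data, gave 0.12 for Bcl2a1a. The same-total scaling also moved the median of all genes from 0.01 to 0.13, and relative to it Bcl2a1d and Bak1 were both at -0.09. With single mice left out, the log2 fold change ranged from -0.49 to 0.17 for Bcl2a1a, -0.31 to 0.13 for Bcl2a1d, -0.385 to 0.076 for Bak1, -0.045 to 0.19 for Bcl2l2, -0.51 to -0.23 for Mcl1, -0.43 to -0.15 for Bcl2l1, -0.47 to -0.054 for Bcl2a1b, 0.064 to 0.17 for Bcl2 and 0.040 to 0.13 for Bax. Those of Bcl2a1b and Bcl2l1 were closest to 0 without stroke mouse 5, of Bcl2 without sham control 5 and of Bax without stroke mouse 1.

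Over the whole table, the counts at an unadjusted p under 0.05 were 1418 higher and 350 lower with no filter, 348 and 69 with the same total, and 866 and 703 with sample quality weights. With single mice left out they ranged from 395 to 936 higher and from 146 to 1162 lower, both highest without sham control 6, where 16.6% of all genes passed in either direction. An adjusted p under 0.05 was found for 1 gene with a filter on the mean value, and for 0 to 1 with single mice left out (1 without sham control 1). The causes were not tested.

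In a fit with a replicate block, 770 genes had higher and 404 lower values at an unadjusted p under 0.05, 0 at an adjusted p under 0.05, and Mcl1 had an unadjusted p of 0.0443 and an adjusted p of 0.521 (limma). In this fit 1 upstream regulator was lower, Nfkb2 (unadjusted p = 0.0381, limma) in place of Stat6 (0.0683). The epithelial markers Krt19 and Lgals4 were lower in it at an unadjusted p of 0.0317 and 0.0280 (limma), as they were not without the block. An unadjusted p under 0.05 was found for 9.32% of all genes in this fit. The labels do not say that the numbers pair the mice. Mice of the same number correlated with a mean of 0.22 in their deviations from the group means, compared with -0.04 for mice of different numbers. The correlation was above 0.1 in 4 of 6 pairs of the same number, and 2 of 6 sham controls correlated best with their own number. The unknown depth limits what can be said of Bok, Bik and Hrk.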
